A study of Homo sapiens with 32 samples.

Results

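Nuclear and cytoplasmic polyadenylated RNA of control HEK293T cells were compared across all genes, using 8 of the 32 libraries of the series, 4 of nuclear and 4 of cytoplasmic RNA. HEK293T is an established human embryonic kidney line that carries the SV40 large T antigen. The members were chosen by label alone: every nuclear and every cytoplasmic library of cells that had received CRISPR/Cas9 with a guide RNA aimed at no mammalian gene, with genotype otherwise given as wild type and no treatment. The labels number these libraries 1 to 4 and give the nuclear and the cytoplasmic library of one number the same batch, so each nuclear library was set beside the cytoplasmic library of its own batch. The control was produced in parallel with the knockouts, which were made by transient transfection with plasmids that do not integrate. The labels do not say whether the control was 1 clone or a pool, nor whether the batches were separate cultures, so p-values measure only the spread between these libraries. The study knocked out IGF2BP1, IGF2BP2 or IGF2BP3, RNA-binding proteins that act on mRNA stability and translation, and used the same control. Fractions were prepared with a commercial subcellular RNA kit, treated with DNase, and made into stranded poly(A) libraries read as pairs. Beside the fractions, 4 total RNA libraries of the control and 8 fraction libraries of the IGF2BP2 and IGF2BP3 knockouts from batches 3 and 4 were read for comparison.

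Most mRNAs are spliced, polyadenylated and exported through nuclear pores, and then wait in the cytoplasm for translation and decay. Poly(A) RNA found in the nucleus therefore includes transcripts still being made or processed, transcripts held back because an intron remains, and long noncoding RNAs that work on chromatin or in nuclear bodies. Transcripts made inside mitochondria mostly carry short tails, and the organelle travels mostly with the cytoplasm when cells are broken open.

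The libraries held 15992797 to 26093403 counts, and no 2 of the 8 had identical counts. Each library is scaled to its own total, and all began from the same mass of RNA. The ratios therefore compare the share of a gene in nuclear poly(A) RNA with its share in cytoplasmic poly(A) RNA, and how many molecules per cell lay on each side cannot be told from them. Genes used here as markers of the line were present: all 8, among them NEFM, a neurofilament gene, and LIN28B and HMGA2, were above 1 CPM in every total library, CPM being counts scaled to the same total in each library. Of 7 genes of mature kidney, 4 of blood and 3 of endothelium, none was above 1 CPM in all 4 total libraries. COL1A1, a collagen listed as a fibroblast marker, read 29.8 to 32.0 CPM in total RNA, while COL1A2 was at 0 there. Above 1 CPM were 2 of 4 fibroblast markers, COL1A1 and PDGFRA (1.32 to 1.51 CPM), and 2 of 3 epithelial ones, CDH1 (5.93 to 7.67 CPM) and EPCAM (1.09 to 2.53 CPM).

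Of 16246 genes tested, 5307 (32.7%) were higher in nuclear and 5418 (33.3%) higher in cytoplasmic RNA at an adjusted p under 0.05 by edgeR's quasi-likelihood test with batch as a term, 66.0% in either direction. The sizes were lopsided. At least 2-fold differences counted 1898 nuclear genes (11.7% of those tested) against 163 cytoplasmic genes (1.0%). The first group took 7.21% to 9.77% of the counts of nuclear libraries and 2.30% to 2.44% of those of cytoplasmic libraries. Ratios are given as log2 of nuclear over cytoplasmic RNA, so positive values are nuclear, and their median over all tested genes was -0.02. The scale decides where 0 lies: with library totals alone in place of TMM scaling every ratio moved up by a median of 0.14, and with values per length, in which mitochondrial RNAs took 21.4% to 24.6% of the nuclear and 50.8% to 53.4% of the cytoplasmic libraries, by 0.74. Small negative ratios below are therefore positions relative to the bulk of genes, and every list below with a negative median, except the mitochondrially encoded RNAs, had a positive one on the scale of values per length. Of the genes called, the share that was nuclear was 49.5% as fitted, 64.1% with library totals, 99.4% with values per length and 67.9% with values per length after the mitochondrial genes were removed.

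The most nuclear mRNAs came from coding genes of diverse function. COL7A1, the collagen of the anchoring fibrils that tie skin layers together, stood at 28.8, 32.5, 40.8 and 34.1 CPM in nuclear libraries 1 to 4 and at 1.49, 1.84, 1.14 and 1.32 CPM in the cytoplasmic ones. Every nuclear library was far above every cytoplasmic one, and the fitted log2 ratio was 4.37 ± 0.12 (SE), with an adjusted p of 7.76e-23 in edgeR's test. The gene (chr3:48564073-48595267, GRCh38, minus strand) has 118 exons with introns of 187 bases on average in its longest coding transcript. PGGHG, an enzyme that removes glucose from the sugar of collagen hydroxylysine, was the most abundant of the 8 most nuclear coding genes. It read 79.6, 95.5, 174 and 139.6 CPM in the nuclear and 5.87, 6.71, 8.67 and 6.70 CPM in the cytoplasmic libraries, a log2 ratio of 3.94 ± 0.09 (SE). Its 13 exons are also parted by short introns, of 219.8 bases on average. MAPK15, an atypical mitogen-activated protein kinase, had a ratio of 4.58 ± 0.18 (SE), and MAMDC4, a membrane protein with MAM domains, one of 3.85 ± 0.14 (SE). CDK5RAP3, part of the ligase that attaches UFM1 to proteins, was at 88.9 ± 20.4 CPM against 5.20 ± 0.510 CPM (mean ± SD, n = 4). Of its exonic bases 30.6% lie in exons of another gene on the same strand in GENCODE 29. All of these differed in the same direction in each of the 4 batches.

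Reads of overlapping genes can be assigned to either gene or to none, which bears on others of the 8 as well. RTEL1-TNFRSF6B, a readthrough of the helicase gene RTEL1 into its neighbour, was the most nuclear coding gene at 4.60 ± 0.14 (SE), and 62.3% of its exonic bases lie in exons of other genes on the same strand in GENCODE 29. EIF4A1, the RNA helicase of the cap-binding complex, read 37.3 ± 4.60 CPM in nuclear and 2.23 ± 0.691 CPM in cytoplasmic RNA, and 48.6% of its exonic bases are shared. IMPDH2, the rate-limiting enzyme of guanine nucleotide synthesis, read 27.3 ± 3.35 CPM and 1.57 ± 0.513 CPM (mean ± SD, n = 4). It shares no exonic base in GENCODE 29, but the counting used an annotation that holds genes GENCODE 29 lacks, whose release is not given in the sources used here. Both EIF4A1, at 18.9, 20.5, 38.1 and 31.7 CPM in total libraries, and IMPDH2, at 15.2, 17.2, 19.6 and 17.8 CPM, were counted at low levels for genes that most dividing cells express strongly. Whether any of their reads went uncounted was not tested. Of tested coding genes 192 share over 50% of their exonic bases. Their median log2 ratio was 0.75 and 43.2% were at least 2-fold nuclear, against -0.07 and 6.95% for the 10914 that share none. The 2 classes also differ in level, with medians of 2.58 and 34.4 CPM. Of all tested coding genes of 1 to 5 CPM 18.5% were at least 2-fold nuclear. The parts of shared reads and of level in these ratios were not tested.

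**Figure D1:**
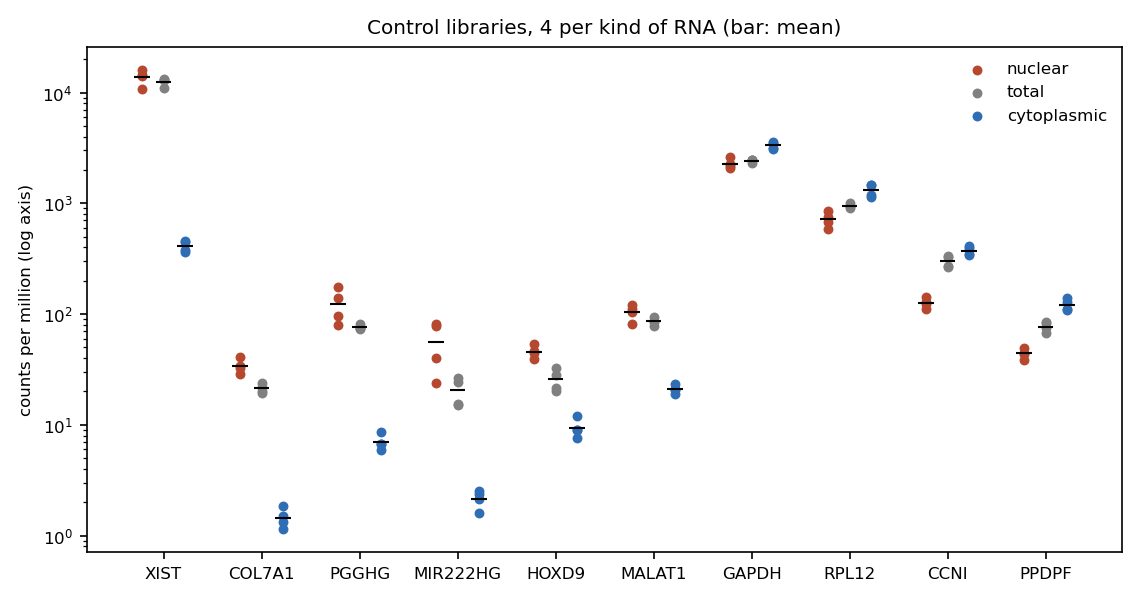
CPM (log axis) of 10 named genes in the 4 nuclear, 4 total and 4 cytoplasmic control libraries, with a bar at each mean. Nuclear and cytoplasmic points do not overlap for any of the 10 genes, and the total libraries lie between the means of the fractions.

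Gene structure ran alongside the ratio across the coding genome. Protein-coding genes are described here by the transcript with the longest coding sequence in GENCODE 29. Genes of 2 to 5 exons had a median log2 ratio of -0.24 (n = 3269), those of 6 to 10 exons -0.15 (n = 3795), those of 11 to 20 exons 0.05 (n = 3791) and those of over 20 exons 0.33 (n = 1837). Intronless genes stood at -0.17 (n = 289). Genes of over 20 exons were called nuclear 1109 times and cytoplasmic 232 times, and genes of 2 to 5 exons 574 and 1679 times. Counting exons of the longest transcript of any kind instead gave medians of -0.20, -0.14, 0.04 and 0.33 for the same 4 classes.

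Intron length ran the other way. The 20% of multi-exon coding genes with the shortest mean introns (up to 1147 bases) had a median of 0.10 and 18.6% of these genes were at least 2-fold nuclear. In the 20% with the longest (from 8079 bases) these were -0.21 and 2.4%, with 49.2% called cytoplasmic. Both properties were then combined. Among the 316 genes with both over 20 exons and the shortest introns, the median was 0.69 and 38.6% were at least 2-fold nuclear, 246 being called nuclear and 16 cytoplasmic. Among the 783 genes with 2 to 5 exons and the longest introns, the median was -0.30 and 2.3% were. Restricting the genes to those of at least 10 CPM with no shared exonic base left 200 genes in the first class and 402 in the second, with medians of 0.58 and -0.34. IQGAP1, a scaffold protein of the cell cortex named here after its values were seen, was strongly nuclear without short introns. With 38 exons and mean introns of 2886 bases, in the middle 20%, it read 266, 379, 371 and 339.8 CPM in nuclear and 39.8, 37.9, 41.9 and 38.0 CPM in cytoplasmic libraries, a ratio of 2.95 ± 0.08 (SE).

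**Figure D2:**
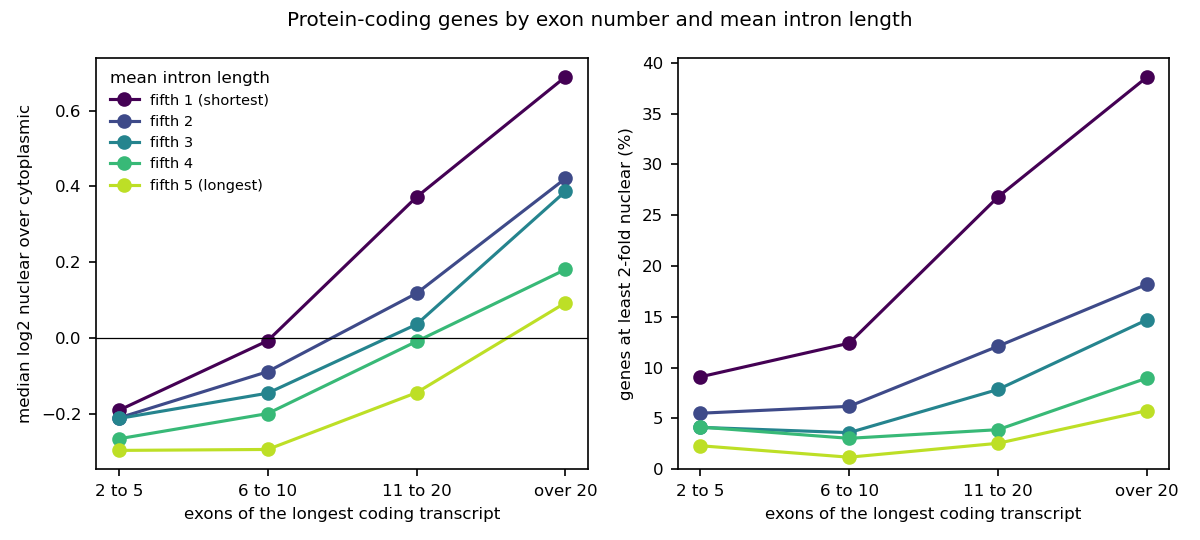
Protein-coding genes split by exon number (horizontal axis) and by mean intron length in classes of 20% (lines): left, median log2 nuclear over cytoplasmic ratio; right, percent of genes called and at least 2-fold nuclear. The line of the shortest introns ends at a median of 0.69 and 38.6%, and the line of the longest at 0.09 and 5.76%.

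Further properties of coding genes were compared. Medians differed little by GC content, at 0.01 in the 20% with the highest, -0.11 in the middle 20% and -0.01 in the 20% with the lowest, and the medians of both extremes changed sign between batches. The tail differed more: the 20% with the highest GC content held 409 genes at least 2-fold nuclear, against 147 in the 20% with the lowest, each of 2606 genes. GC content and intron length are tied: 1176 genes of the highest 20% of GC have introns of the shortest 20% and 181 of the longest. Among genes with the longest introns the medians were -0.15 in the lowest 20% of GC and -0.32 in the highest, against 0.06 and 0.25 among those with the shortest introns. Genes with an annotated retained-intron transcript had a median of 0.03 (n = 7419) and the others -0.17 (n = 5611). Level also differed: coding genes above 500 CPM had a median of -0.32 (n = 229), and those of up to 1 CPM 0.23 (n = 599).

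Noncoding RNA was split by type. Annotated lincRNAs, the long intergenic noncoding RNAs, had a median of 0.21 (n = 644) with 249 nuclear and 79 cytoplasmic calls. Antisense RNAs had one of 0.18 (n = 865) with 308 and 137. Nuclear calls were 38.7% of lincRNAs and 35.6% of antisense RNAs, near the 32.7% of all tested genes. Cytoplasmic calls were 12.3% and 15.8%, below the 33.3% of all. Median levels were 1.62 and 1.79 CPM, and 316 and 420 genes were not called. The median of coding genes was -0.05 (n = 13030). Other classes stood further out. Sense intronic RNAs, which lie inside another gene, were at 0.98 (n = 128), with 50% at least 2-fold nuclear, and TEC models, a provisional class of the annotation, were at 0.93 (n = 112). Sense overlapping RNAs were at 0.44 (n = 36). Median levels were 1.16 CPM for sense intronic RNAs and 1.28 CPM for TEC models. The count filter admits a gene on the libraries of either fraction alone, which bears on classes this low. Pseudogene classes differed widely. Transcribed unprocessed pseudogenes, duplicated genes that keep their introns, had a median of 1.42 (n = 37). Processed pseudogenes, intronless copies of spliced mRNAs, had one of -0.39 (n = 453). Of these 177 (39.1%) were called cytoplasmic, near the 33.3% of all tested genes, and 58 (12.8%) nuclear, below the 32.7% of all. Their median level was 1.20 CPM, and 218 were not called. Processed pseudogenes annotated as transcribed stood between, at 0.07 (n = 69), with 22 nuclear (31.9%) and 16 cytoplasmic (23.2%) calls. Reads of a processed copy cannot be told apart from those of its parent mRNA where the sequences are the same.

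Small RNAs, which are not polyadenylated in their mature form, appeared at low counts. The 51 tested had a median of 2.53, the highest of the types, and 40 of them lie within a longer gene on the same strand. Their median level was 0.946 CPM. The count filter admits a gene on the libraries of either fraction alone. RNAs this low can therefore be tested through the fraction where they are high, and the median and calls of this class may be partly set by the filter. The 30 snoRNAs, guides of ribosomal RNA modification, included 27 within a longer gene and 27 nuclear calls. Host-gene and small-RNA reads were not separated.

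**Figure D3:**
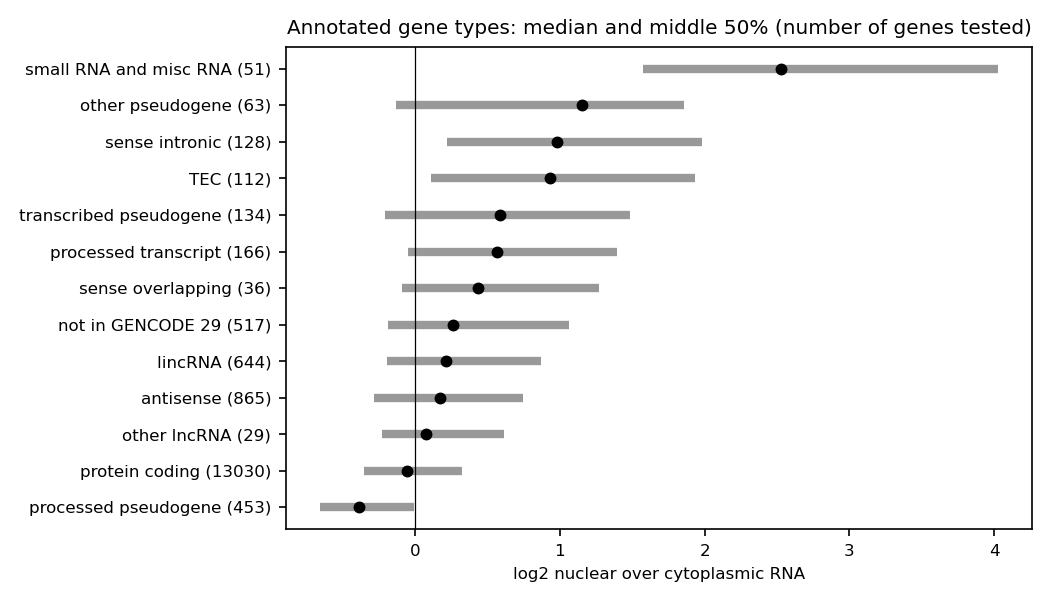
Median (point) and middle 50% (bar) of the log2 nuclear over cytoplasmic ratio for gene types of GENCODE 29 with at least 20 tested genes, with the number tested in brackets. Small RNAs lie at 2.53, sense intronic RNAs at 0.98, protein-coding genes at -0.05 and processed pseudogenes at -0.39.

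The most nuclear RNA of all that met the level and sign conditions for naming was noncoding. XIST, the RNA that coats and silences the inactive X chromosome (chrX:73820651-73852723), took 1.07% to 1.599% of nuclear and 0.0361% to 0.0455% of cytoplasmic counts. In CPM the nuclear libraries read 10709.7, 14402, 15989 and 14112 and the cytoplasmic ones 455, 443, 382 and 361, a log2 ratio of 4.92 ± 0.12 (SE) with an adjusted p of 3.47e-23 in edgeR's test. The next most nuclear genes that code for no protein and reach 5 CPM were ASMTL-AS1 (4.50), an antisense RNA at a gene shared by X and Y, MIR222HG (4.45), STAG3L5P (4.17), a pseudogene of a cohesin subunit, ENSG00000278041 (4.01) and LINC01355 (3.73). ENSG00000278041, an unnamed RNA at chr20:21499261-21502934, read 66.1, 81.4, 125 and 110.4 CPM in nuclear against 5.19, 5.56, 5.44 and 4.61 CPM in cytoplasmic libraries, with no overlap.

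The RNAs commonly used as nuclear markers were spread over a wide range. KCNQ1OT1, which silences an imprinted domain, FTX, a regulator of XIST, and MALAT1, a resident of nuclear speckles, had ratios of 2.39, 2.17 and 2.15. NEAT1, the scaffold of paraspeckles, reached only 0.69 ± 0.06 (SE), with 157, 189, 248 and 216 CPM in nuclear and 98.8, 102, 124 and 127 CPM in cytoplasmic libraries. TUG1 stood at 0.62. JPX, an activator of XIST, differed little at 0.18 with an adjusted p of 0.0125 in edgeR's test, a call lost without the batch term (adjusted p = 0.0984), without nuclear library 2 (0.187) and without cytoplasmic library 2 (0.219) or 4 (0.0608), and in batches 3 and 4 alone (0.109). MIAT was not called, at -0.30 and under 1 CPM on average in both fractions. Of 197 LINC-named RNAs 74 (37.6%) were called nuclear, near the 32.7% of all tested genes, and 26 (13.2%) cytoplasmic, below the 33.3% of all.

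MicroRNA host transcripts, the long RNAs from which microRNA hairpins are cut in the nucleus, formed one of the most nuclear lists. Of 82 genes with such a name 24 were expressed enough to test, and their median was 1.03. Of these 17 (70.8%) were called nuclear and 1 (4.17%) cytoplasmic, beside 32.7% and 33.3% over all tested genes. The median level of the tested hosts was 4.24 CPM. The count filter admits a gene on the libraries of either fraction alone, so the calls and median of this list may be partly set by it. MIR222HG read 24.1, 40.5, 82.1 and 77.7 CPM in nuclear libraries and 2.501, 1.61, 2.15 and 2.36 CPM in cytoplasmic ones. The nuclear values of batches 3 and 4 were well above those of batches 1 and 2, and the ratio of 4.45 ± 0.28 (SE) was 3.85 in batches 1 and 2 alone. MIR503HG read 27.8, 31.4, 57.1 and 49.5 against 2.89, 3.40, 3.59 and 3.24 CPM, with a ratio of 3.46 ± 0.11 (SE). MIR34AHG, at 14.1, 19.5, 28.9 and 25.8 against 1.97, 3.08, 2.87 and 3.68 CPM, and MIR17HG, at 29.2, 48.1, 66.5 and 56.3 against 11.8, 11.2, 11.4 and 11.9 CPM, were added after their values were seen because their microRNAs are well known, with ratios of 2.76 ± 0.11 (SE) and 1.92 ± 0.16 (SE). MIR4458HG, the cytoplasmic exception, had a ratio of -0.30 ± 0.12 (SE). The list's median ran from 0.48 to 2.34 over 23 alternatives of scaling, filter, test and library choice.

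The mature microRNAs that lie within these hosts on the same strand are printed so that a reader can see which regulators the nuclear transcripts carry. They come from RefSeq (GRCh38.p14), 5′ to 3′, with the seed (bases 2 to 8) in capitals. The mature forms themselves are too short for these libraries and were not measured.
MIR222HG, miR-221-3p: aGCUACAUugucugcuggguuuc
MIR222HG, miR-222-3p: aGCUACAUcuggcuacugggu
MIR503HG, miR-503-5p: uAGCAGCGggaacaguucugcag
MIR34AHG, miR-34a-5p: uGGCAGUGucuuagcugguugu
MIR17HG, miR-17-5p: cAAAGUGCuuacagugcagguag
MIR17HG, miR-20a-5p: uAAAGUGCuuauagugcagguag
MIR17HG, miR-18a-5p: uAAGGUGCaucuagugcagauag
MIR17HG, miR-19a-3p: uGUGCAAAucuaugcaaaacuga
MIR17HG, miR-19b-3p: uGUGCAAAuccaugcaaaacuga
MIR17HG, miR-92a-3p: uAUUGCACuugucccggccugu
The pair in MIR222HG (chrX:45745211-45770274, minus strand) shares the seed GCUACAU. In MIR17HG (chr13:91347820-91354579, plus strand) miR-17-5p and miR-20a-5p share AAAGUGC, miR-19a-3p and miR-19b-3p share GUGCAAA, and miR-18a-5p and miR-92a-3p have seeds of their own, AAGGUGC and AUUGCAC.

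Hosts of small nucleolar RNAs, which carry the snoRNAs in their introns, were divided. Of 25 tested, 13 were nuclear and 7 cytoplasmic, with a median of 0.19. SNHG12 read 40.2, 46.7, 58.3 and 48.1 CPM in nuclear and 14.5, 14.3, 14.4 and 12.8 CPM in cytoplasmic libraries, and SNHG1 had a ratio of 1.53 ± 0.09 (SE). SNHG16 lay on the other side without overlap, at 128, 124, 122 and 128 CPM in nuclear and 228, 230.3, 244 and 238 CPM in cytoplasmic libraries, a ratio of -1.04 ± 0.06 (SE).

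Tested members of gene families from recent duplications were mostly called nuclear. Of 237 members 188 did not pass the count filter. Of the 49 tested 44 (89.8%) were called nuclear and 0 cytoplasmic, and 34 (69.4%) were at least 2-fold nuclear, around a median of 1.27. Over all tested genes 32.7% were called nuclear and 11.7% were at least 2-fold nuclear. The median level of the tested members was 3.33 CPM. The filter admits a gene on the libraries of either fraction alone, so their calls and median may be partly set by it. The medians in the 4 batches ran from 1.01 to 1.42. GOLGA8A, a golgin-related gene of the duplicated region of chromosome 15, read 77.5, 105, 125 and 118 CPM in nuclear and 14.9, 14.9, 13.9 and 13.7 CPM in cytoplasmic libraries, and its copy GOLGA8B had a ratio of 2.45 ± 0.09 (SE). Copies share sequence, so reads may be divided among them or lost, and the name pattern of the list also takes in TBC1D30 and TBC1D31. The 4 tested genes of endogenous retroviral origin were all nuclear, among them ERVK13-1 at 1.59 and ERVK3-1 at 1.38. Of the exonic bases of ERVK3-1 17.4% are shared with other genes of the same strand. Both lists had positive medians under each of the 23 alternatives, from 0.77 to 1.85 for the duplicated families.

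Secreted and matrix proteins made the most nuclear list of ordinary coding genes. Collagens, laminins, integrins and their relatives had a median of 0.91, with 55 of 70 tested called nuclear, 30 of them at least 2-fold, and 1 cytoplasmic. That 1 was ITGB1BP1, an adaptor caught by the name pattern and no matrix gene, as is ITGB1BP2. After COL7A1 came COL11A2, a fibrillar collagen of cartilage, at 3.88 ± 0.18 (SE) with 6.50, 10.3, 13.4 and 9.38 CPM in nuclear and 0.577, 0.689, 0.658 and 0.439 CPM in cytoplasmic libraries. More abundant members, named after their values were seen, were COL27A1 at 135 ± 36.5 CPM against 17.6 ± 1.67 CPM, LAMB2, a laminin chain of basement membranes, at 149 ± 21.1 CPM against 36.3 ± 2.36 CPM, and LAMA5 at 96.3 ± 6.71 CPM against 30.4 ± 6.43 CPM (mean ± SD, n = 4). The list's median was 0.49 to 1.28 over the alternatives, lowest among members of at least 10 CPM.

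A hydrophobic start of the protein, as signal peptides have, went with a small shift. Coding genes whose product has one had a median of 0.06 (n = 1851) and the others -0.07 (n = 11130). Within genes of over 20 exons these were 0.49 (n = 241) and 0.30 (n = 1596), and within genes of 2 to 5 exons -0.15 (n = 515) and -0.26 (n = 2754). Other lists of the secretory path and of membranes lay near the bulk: folding enzymes of the endoplasmic reticulum had a median of 0.05 and solute carriers, membrane transporters with many hydrophobic segments, 0.01. Among the latter SLC9A5, a sodium-proton exchanger, was at 2.09 and SLC25A23, a mitochondrial carrier, at -1.12. Adhesion cadherins had 13 nuclear calls and 0 cytoplasmic among 25, among them CELSR3 (1.51) and FAT4 (1.27, and 1.93 in batch 4). Lysosomal proteins, at a median of 0.18, included IDUA (3.03) and ARSA (1.77), hydrolases of sugar chains and of sulfated lipids.

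**Figure D4:**
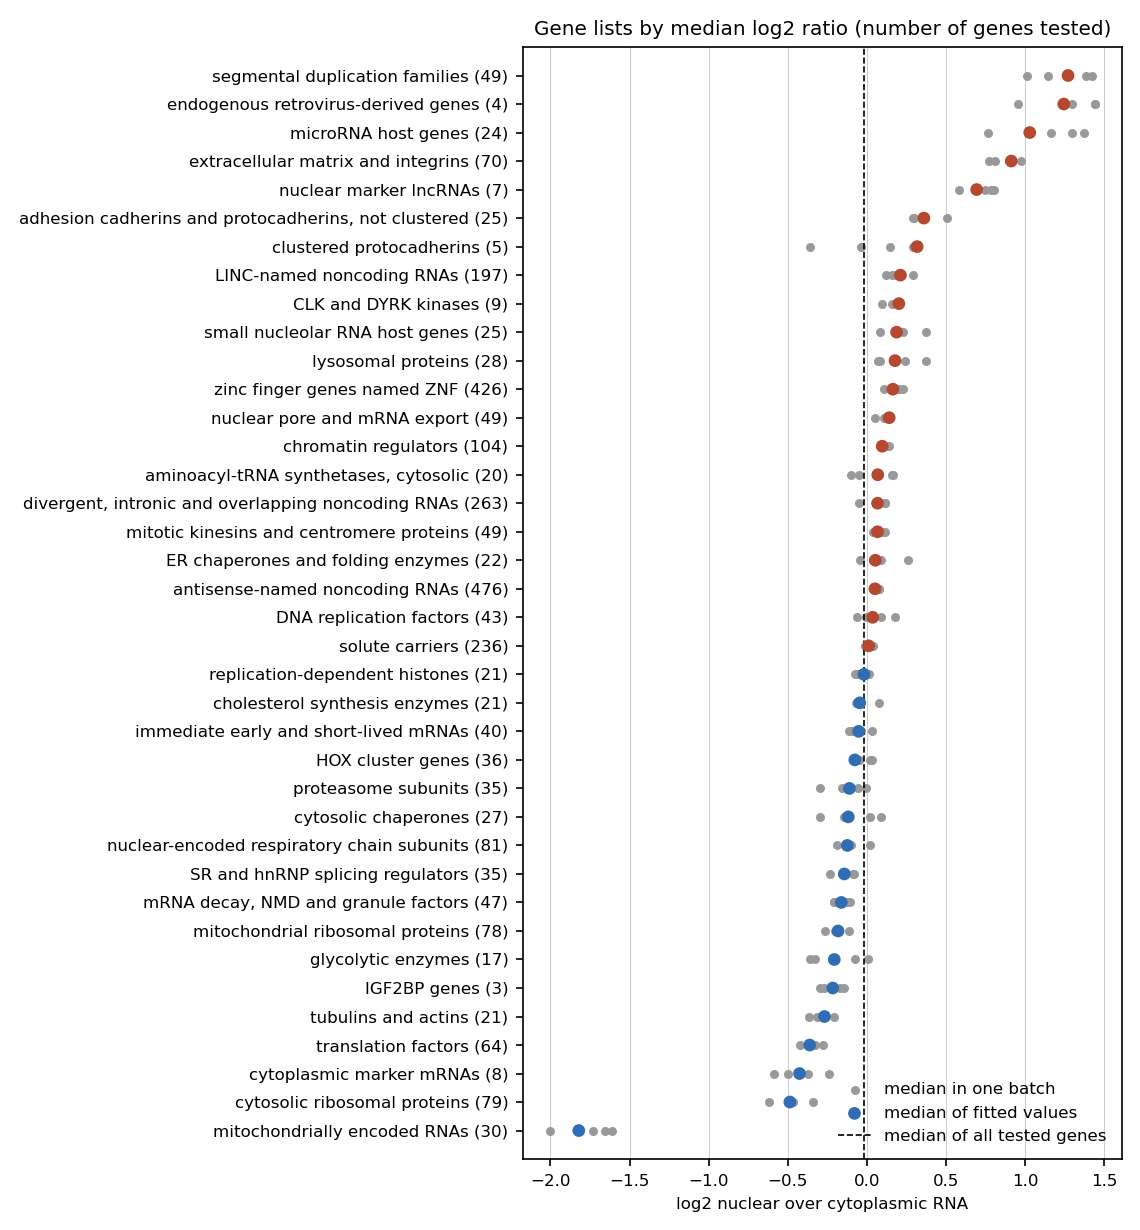
Median log2 nuclear over cytoplasmic ratio of each gene list (coloured point), with the median in each of the 4 same-batch pairs (grey points), the number of genes tested in brackets and the median of all tested genes as a dashed line. Duplicated families, microRNA hosts and matrix genes lie at 1.27, 1.03 and 0.91, and mitochondrially encoded RNAs at -1.82.

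Zinc finger genes of the ZNF series, mostly DNA-binding repressors, had 182 nuclear and 79 cytoplasmic calls among 426, at a median of 0.16. The shares were 42.7% and 18.5%, beside 32.7% and 33.3% over all tested genes. At least 2-fold nuclear calls were 7.51%, below the 11.7% of all. In batches 3 and 4 the median was 0.19 and 0.23 in the control. It was 0.09 and 0.04 without IGF2BP2 and 0.02 and -0.01 without IGF2BP3. The median was higher in classes with more TGEKP linkers, the short joints between fingers. Coding genes with none had a median of -0.06, those with 3 to 5 linkers 0.16 (n = 129), those with 6 to 10 linkers 0.30 (n = 119) and those with more than 10 linkers 0.43 (n = 36). ZNF692 at 1.93 and ZNF251 at 1.51 were the most nuclear of at least 5 CPM, and ZNF358 at -1.14 and ZNF385B at -1.09 the most cytoplasmic.

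HOX genes, the homeobox regulators of body position, held calls in both directions, as all genes did. Of 36 tested, 15 were nuclear and 14 cytoplasmic, shares of 41.7% and 38.9% beside 32.7% and 33.3% over all tested genes, and the median was -0.08. HOXD9 (chr2:176122720-176124937) read 39.3, 46.4, 53.6 and 44.1 CPM in nuclear and 7.599, 12.04, 8.91 and 8.89 CPM in cytoplasmic libraries, a ratio of 2.15 ± 0.09 (SE). HOXD13, in the same cluster and like HOXD9 a gene of 2 exons, read 83.2, 79.9, 68.4 and 71.1 CPM in nuclear and 136, 135, 111 and 107 CPM in cytoplasmic libraries, a ratio of -0.83 ± 0.06 (SE). The groups did not overlap in either gene and pointed in opposite directions, except that HOXD13 stood at 0.0181 on the scale of values per length. HOXD10, named after its values were seen, was nuclear at 1.34 ± 0.07 (SE), with 16.8% of its exonic bases shared. HOXC10, in another cluster, was cytoplasmic at -1.02 ± 0.08 (SE), with 7.12% shared. HOXD4 was at 2.10, but 80.5% of its exonic bases are shared with other genes of the same strand.

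Splicing kinases and splicing regulators held members on both sides, as all genes did. CLK4 and CLK1, kinases that phosphorylate splicing factors, read 39.3 ± 11.2 CPM against 12.6 ± 1.58 CPM and 71.4 ± 20.5 CPM against 25.8 ± 1.61 CPM, ratios of 1.46 ± 0.17 (SE) and 1.29 ± 0.11 (SE). The list of CLK and DYRK kinases had 6 nuclear (66.7%) and 2 cytoplasmic (22.2%) calls among 9, beside 32.7% and 33.3% over all tested genes. SR and hnRNP proteins, the splicing regulators themselves, had a median of -0.14 with 8 nuclear (22.9%) and 17 cytoplasmic (48.6%) calls. Its most nuclear member of at least 5 CPM was SRSF11, at 503, 704, 966 and 884 CPM in nuclear and 245, 228, 206 and 198 CPM in cytoplasmic libraries, and its most cytoplasmic HNRNPUL1, at a ratio of -0.94. Among export factors the helicase DDX39B, which shares 30.8% of its exonic bases, stood at 1.56 and the pore protein RANBP2 at 1.26. Among chromatin regulators HDAC10, a deacetylase that shares 55.8% of its exonic bases, stood at 3.36. KMT2A, a histone methyltransferase that shares 17.9%, stood at 1.24, and among mitotic genes CENPT and CENPF at 1.798 and 1.25. POLE, the leading-strand DNA polymerase, stood at 1.29. Of mRNA decay factors, PAN2, a deadenylase, stood at 1.98 and SMG1, the kinase of nonsense-mediated decay, at 1.02, while CNOT6 and CNOT7, catalytic subunits of another deadenylase, were at -0.89 and -0.82. The medians of the export, chromatin, mitotic, replication and decay lists lay between -0.16 and 0.14.

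The cytoplasmic side was led by few large and many small differences. CCNI, cyclin I, an atypical member of the cyclin family, was the most cytoplasmic coding gene of the nuclear genome with at least 10 CPM, at 123.2, 112, 128 and 143 CPM in nuclear and 347, 345, 411 and 395 CPM in cytoplasmic libraries. The groups were far apart and the ratio was -1.71 ± 0.07 (SE), with an adjusted p of 1.24e-19 in edgeR's test. PPDPF, named for a role in pancreatic progenitors, read 44.0, 38.9, 44.3 and 49.3 against 108, 128, 112 and 139.8 CPM, a ratio of -1.61 ± 0.07 (SE). The next were RNF11, a RING finger protein of ubiquitin ligases (-1.26), RBPMS2, an RNA-binding protein (-1.26), SH3BGRL3 (-1.23), UCP2, a mitochondrial carrier (-1.21), CAMK2N1, an inhibitor of CaM kinase II (-1.19), and PKIA, an inhibitor of protein kinase A (-1.19). All 8 have 8 exons or fewer in their longest coding transcript, and none shares exonic bases with a gene of the same strand. RNF11 and PKIA have mean introns of 17050.5 and 28322 bases, and PPDPF and SH3BGRL3 of 268 and 343 bases.

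Genes of the translation machinery were mostly called cytoplasmic. Of 79 cytosolic ribosomal protein genes 69 were called cytoplasmic and 5 nuclear, but only 1 reached 2-fold, and the median was -0.49. RPL12 read 677, 580.3, 759.6 and 852 CPM in nuclear and 1197, 1146, 1453 and 1451 CPM in cytoplasmic libraries, a ratio of -1.02 ± 0.07 (SE), and RPS12 had a ratio of -0.96 ± 0.07 (SE). RPL36A, at 1.41, was among the 5 nuclear ones. It was counted at a low level for its class, 38.0 ± 3.74 CPM in nuclear RNA (mean ± SD, n = 4), and 8.40% of its exonic bases are shared. Translation factors had 41 cytoplasmic and 7 nuclear calls among 64, at a median of -0.36. EIF4EBP2 and EIF4E3, which bind the cap-binding factor and the cap, were the most cytoplasmic of at least 5 CPM, at -1.12 and -0.96. EEF1A1, the elongation factor that delivers tRNA, stood at -0.57 ± 0.09 (SE). Both list medians turned positive on the scale of values per length, on which 99.4% of the genes called were nuclear. They kept their sign under the other 21 alternatives.

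Many mRNAs of the translation machinery begin with a terminal oligopyrimidine tract, through which their translation is tied to growth signals. A start was scored where the RefSeq start base is C and the next 4 bases are each C or T, on the transcribed strand alone. Of RefSeq promoters with 1 entry per gene 3.98% had such a start (n = 22114). It was found in 41 of 53 matched ribosomal protein genes, whose median was -0.47, against -0.31 for the 12 without. Over the 7429 matched coding genes the 405 with such a start had a median of -0.17 and the others -0.03. The starts below show members from both ends of the list, from RefSeq (GRCh38.p14), 15 bases before the start and 15 from it on, with the unbroken run of C and T from the start base in capitals where that base is C.
RPL12: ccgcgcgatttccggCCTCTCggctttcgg
RPS12: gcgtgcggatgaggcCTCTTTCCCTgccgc
RPL28: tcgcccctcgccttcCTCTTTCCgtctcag
EEF1A1: gtcgccgtgaacgttCTTTTTCgcaacggg
RPLP1: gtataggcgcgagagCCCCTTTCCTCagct
RPS21: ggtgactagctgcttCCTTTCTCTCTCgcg
RPS4X: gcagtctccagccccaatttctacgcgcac
The windows lie at chr9:127451392-127451421 (RPL12, minus strand), chr6:132814554-132814583 (RPS12, plus strand), chr19:55385917-55385946 (RPL28, plus strand), chr6:73521018-73521047 (EEF1A1, minus strand), chr15:69452803-69452832 (RPLP1, plus strand), chr20:62387088-62387117 (RPS21, plus strand) and chrX:72277234-72277263 (RPS4X, minus strand). RPL28, RPLP1, RPS21 and RPS4X were picked after their values were seen. Genes with such a start lay on both sides: RPL28 had a ratio of -0.88 ± 0.07 (SE), RPLP1 one of 0.05 ± 0.08 (SE), which was not called, and RPS21 one of 0.51 ± 0.06 (SE), with 492, 436, 543 and 537 CPM in nuclear and 316, 291, 339 and 335 CPM in cytoplasmic libraries. RPS4X, whose RefSeq start base is not C, was cytoplasmic at -0.76 ± 0.09 (SE), though at 0.0929 on the scale of values per length.

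Other housekeeping lists were mixed. Cytoplasmic marker mRNAs had a median of -0.43, and GAPDH, the glycolytic enzyme used as a standard, read 2631, 2275, 2071 and 2169.8 CPM in nuclear and 3152, 3111, 3480.3 and 3581 CPM in cytoplasmic libraries. Its ratio was -0.69 ± 0.09 (SE), and that of ACTB, cytoplasmic actin, -0.59 ± 0.08 (SE), and both were positive on the scale of values per length, at 0.16 and 0.26. PGK1, another glycolytic enzyme of the list, went the other way at 0.20 ± 0.07 (SE) with an adjusted p of 0.0111 in edgeR's test, and this call was lost without nuclear library 1 (adjusted p = 0.0538), nuclear library 2 (0.0659), cytoplasmic library 1 (0.0756) or cytoplasmic library 2 (0.082), and in batches 3 and 4 alone (0.0591). ENO1, at -0.22, lost its call without the batch term (adjusted p = 0.155), with library totals (0.272) and in batches 1 and 2 alone (0.505). Its call was also lost when nuclear or cytoplasmic library 2, 3 or 4 was left out, at adjusted p-values of 0.0678 to 0.187. Mitochondrial ribosomal proteins had 46 cytoplasmic (59.0%) and 7 nuclear (8.97%) calls among 78 (median -0.18). Nuclear-encoded respiratory chain subunits had 38 (46.9%) and 17 (21.0%) among 81 (median -0.12), beside 33.3% and 32.7% over all tested genes. COX6A1, a subunit of cytochrome oxidase, was an exception at 1.59, with 13.0% of its exonic bases shared. Replication-dependent histone genes, whose mRNAs end in a stem-loop in place of a poly(A) tail, had 21 of 82 members tested and a median of -0.02. Of the targeted genes of the study, IGF2BP2 and IGF2BP1 were called cytoplasmic in these control cells, at -0.49 and -0.22, and IGF2BP3 was not called at -0.01. On the scale of values per length all 3 were positive. The call of IGF2BP1 was lost without the batch term (adjusted p = 0.116), with library totals (0.209) and in batches 1 and 2 alone (0.0688).

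Mitochondrially encoded RNAs had the lowest median of the 38 lists, -1.82, and were divided by strand. Mitochondrial DNA is transcribed from both strands as long precursors: the one annotated plus here yields nearly all of the mRNAs and both ribosomal RNAs, the minus one MT-ND6 and a few tRNAs. Of the 23 tested plus-strand RNAs 20 were cytoplasmic and none nuclear, with ratios from -2.98 to -0.22. Of the 7 tested minus-strand RNAs 7 were nuclear, from 1.47 to 2.23. All of these but MT-ND6 are tRNAs at low counts. MT-TY read 0.750 CPM in nuclear and 0.160 CPM in cytoplasmic RNA on average. The count filter admits a gene on the libraries of either fraction alone, and 7 of 37 mitochondrial genes were not tested. The direction of these tRNAs may therefore be partly set by the filter. MT-ND4, a subunit of complex I on the plus strand, read 2237, 1763, 1710.0 and 2121 CPM in nuclear and 11234, 11216, 13577 and 12347 CPM in cytoplasmic libraries, a ratio of -2.77 ± 0.11 (SE). MT-ND6, a subunit of the same complex on the minus strand, read 199, 220.4, 178 and 157 CPM in nuclear and 44.6, 57.4, 70.1 and 64.0 CPM in cytoplasmic libraries, a ratio of 1.55 ± 0.21 (SE) with an adjusted p of 0.00265 in edgeR's test. Nuclear and cytoplasmic values of MT-ND6 did not overlap, nor did those of MT-ND4.

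The remaining plus-strand mRNAs fell between MT-ND4L (-2.75) and MT-CO3 (-1.46), and the 2 ribosomal RNAs MT-RNR1 and MT-RNR2 were at -1.46 and -1.33. The 3 that were not called are the tRNAs MT-TF (-0.22), MT-TV (-0.31) and MT-TW (-0.38). The nuclear tRNAs were MT-TE (2.23), MT-TS1 (2.20), MT-TY (2.07), MT-TQ (1.91), MT-TP (1.49) and MT-TC (1.47), each below 4 CPM on average, and MT-TD, at -1.93, became -2.61 without nuclear library 2 and -2.62 without cytoplasmic library 2. As a sum, minus-strand RNAs read 211, 233, 189 and 169 CPM in nuclear, 47.0, 60.9, 73.4 and 66.6 CPM in cytoplasmic and 148, 161, 208 and 175 CPM in total libraries. Nuclear and cytoplasmic sums did not overlap. All mitochondrial genes together took 2.02% to 2.42% of nuclear, 7.19% to 8.43% of cytoplasmic and 3.02% to 3.78% of total counts. Whether the counting used the strand of the reads is not given in the sources used here. The most cytoplasmic genes that code for no protein outside the mitochondrial genome and reach 5 CPM were MTND2P28 (-2.69), MTATP6P1 (-2.31) and MTCO1P12 (-1.57), copies of mitochondrial genes in a block on chromosome 1. Reads of these copies cannot be told apart from mitochondrial ones where the sequences are the same. ENSG00000227615, the fourth by the same order, stood at -1.22, and at -0.47 in batch 4.

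**Figure D5:**
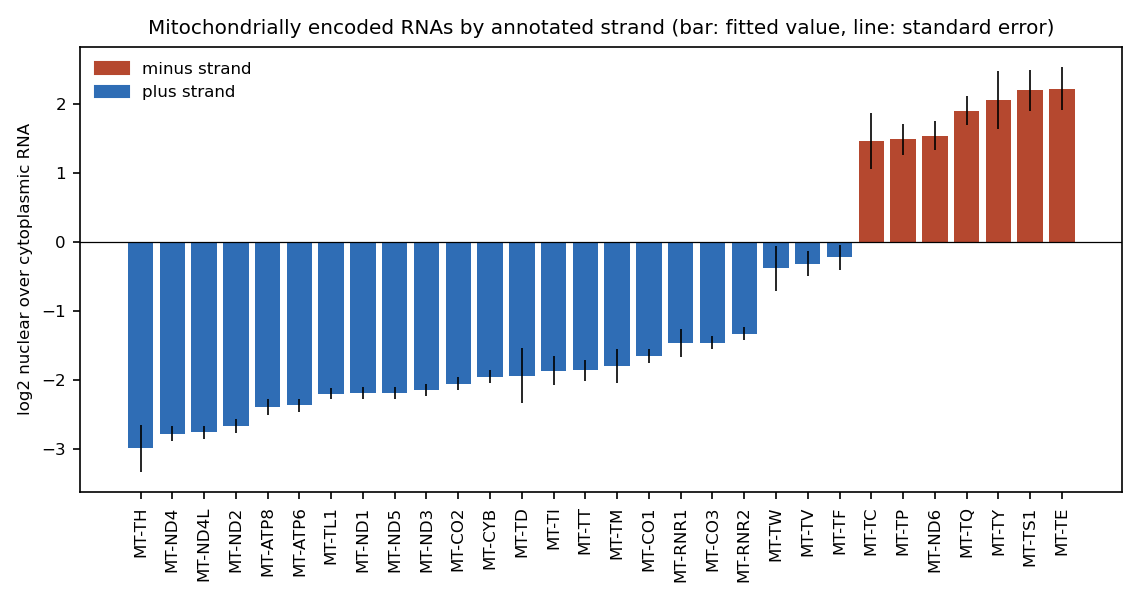
Log2 nuclear over cytoplasmic ratio of the 30 tested mitochondrially encoded RNAs (bar, fitted value; line, standard error; n = 4 libraries per fraction), coloured by annotated strand. The 7 minus-strand RNAs are above 0 and the 23 plus-strand RNAs below, of which MT-TF and MT-TV turned positive on the scale of values per length.

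Total RNA of the control was not used in the comparison. Among genes at least 2-fold different and averaging 10 CPM or more over the 8 fraction libraries, the mean in total RNA lay between those of the fractions for 556 of 616 nuclear and 77 of 78 cytoplasmic genes. Total RNA holds both fractions, and these genes were chosen because the fractions differ. A mean in between is therefore no check of the calls. Placing total RNA on the line between the fractions of its batch, in CPM, gave a median nuclear weight of 86.0, 67.4, 58.6 and 58.0% in batches 1 to 4 from nuclear genes. From cytoplasmic genes it was 51.1, 40.1, 60.1 and 61.8%. The medians of the 2 sets of genes lay close in batches 3 and 4 and apart in batches 1 and 2. Single genes spread widely, and the middle 50% of the cytoplasmic genes ran from 42.8 to 72.3% in batch 3. Over the 12 cytoplasmic genes of at least 4-fold the median of the 4 batches was 84.7% in place of 55.6%. CCNI stood nearer to cytoplasmic RNA, with 331, 334, 264 and 271 CPM in total libraries, and XIST nearer to nuclear RNA, with 13057, 13385, 12872 and 10984 CPM. Of the nuclear genes 60 had a higher mean in total than in either fraction.

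The fractions of knockout cells, which entered no control fit, were read by the same lists in batches 3 and 4. Of 11 lists with a control median of at least 0.3 in size, 11 had the sign of that fitted median in all 4 knockout pairs. The 5 tested clustered protocadherins, at 0.32 as fitted, were at -0.36 and -0.04 in the control's own batches 3 and 4. Matrix genes had medians of 0.77 and 0.85 in cells without IGF2BP2 and 1.02 and 1.08 in cells without IGF2BP3, beside 0.97 and 0.77 in the control. MicroRNA hosts read 0.14, 0.26, 0.65 and 0.56 in the same order of knockout pairs, beside 1.38 and 1.17. Duplicated families read 0.69, 0.73, 0.72 and 0.89, beside 1.42 and 1.39. Nuclear marker RNAs read 0.48, 0.13, 0.26 and 0.40, beside 0.81 and 0.75. Lists with smaller control medians went both ways. LINC-named RNAs read -0.03, -0.21, -0.02 and -0.09, beside 0.16 and 0.19. Antisense-named RNAs read -0.18, -0.18, -0.07 and -0.10, beside 0.05 and 0.08. Glycolytic enzymes read 0.01, 0.08, 0.04 and 0.06, beside -0.36 and -0.33, and snoRNA hosts -0.33, -0.19, 0.07 and -0.06, beside 0.38 and 0.08. Chromatin regulators kept their sign at 0.20, 0.11, 0.17 and 0.20, beside 0.09 and 0.09. Each knockout is 1 clone, and the difference between genotypes was not tested.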

How the data were processed

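Polyadenylated RNA of nuclear and cytoplasmic fractions of control HEK293T cells was sequenced in 4 batches, with 1 library per fraction and batch. The authors deposited whole-number read counts per gene with Ensembl identifiers, and the submitters' processing notes name STAR, featureCounts, DESeq2 1.44.0 and build GRCh38. The annotation release and the strand setting of the counting are not given in the sources used here. FPKM, counts per gene length and library size, were also deposited by the authors. They were rescaled here to a fixed sum per library (TPM) and served only as an alternative scale per length. Of 62703 identifiers 58279 are in GENCODE 29, which supplied gene types, exon structure and coordinates (GRCh38), and 517 tested genes are not in it.

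Counts were fitted with edgeR 4.0.16 in R 4.3.3, with TMM scaling, filterByExpr by fraction, a robust quasi-likelihood test and batch as a term. The filter admits a gene on the libraries of either fraction alone. Benjamini-Hochberg adjustment ran over all tested genes, with a threshold of 0.05. A second rule added a 2-fold difference. Standard errors come from the same fit, and CPM are scaled to the library total. The labels' batch pairs the libraries. Deviations of same-batch libraries from their fraction means correlated at 0.215, 0.319, 0.238 and 0.264 across genes, while the highest correlation of each nuclear library with a cytoplasmic one of another batch was 0.2502, 0.2816, 0.2737 and 0.2897, so the pairing rests on the labels and not on these values. Gene lists and classes are described by counts and medians with no test, and the code was tested on simulated data. Named genes were the 8 most nuclear and 8 most cytoplasmic called coding genes of the nuclear genome of at least 10 CPM, the 6 and 4 most extreme other genes of at least 5 CPM, up to 2 per list and direction, and all marker and mitochondrial genes. All named this way, except marker and mitochondrial genes, had the same sign in every batch. Of the genes named per list, those below 0.8 in size on the log2 scale were mostly left out. Members and lists were chosen with earlier results of these data known. A hydrophobic N-terminus is a window of 12 residues within the first 35 with a mean Kyte-Doolittle value of at least 2, in the translated coding sequence. Mean intron length, shared exonic bases, the longest coding transcript and pyrimidine starts were added after the data were seen. Alternatives were other scalings, filters, DESeq2 1.42.0, limma 3.58.1 on log2(TPM + 1) and log2(TPM + 0.1), no batch term, pairs of batches and each library left out. Fractions of the IGF2BP1 knockout were not analysed here.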

Additional observations from a re-analysis of the deposited data

Results flagged for a closer look

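Among the 184 groups of 4 same-batch log2 ratios or levels that were examined, 7 had 1 batch set apart from the other 3 by a gap past Dixon's 95% critical value for 4 samples, and chance flags about 5% of groups. KCNQ1OT1 was less nuclear in batch 1 (2.01) than in the others (2.51 to 2.57). POLE was more nuclear in batch 3 (1.46, others 1.21 to 1.24), and FAT4, an adhesion cadherin, in batch 4 (1.93, others 1.00 to 1.15). EIF4E3 was more cytoplasmic in batch 1 (-1.08, others -0.93 to -0.90). ENSG00000227615 was less cytoplasmic in batch 4 (-0.47, others -1.51 to -1.34). Among mitochondrial RNAs MT-RNR2 was more cytoplasmic in batch 3 (-1.6045, others -1.27 to -1.21) and MT-TD, counted below 1 CPM on average in both fractions, less so in batch 2 (-1.0014, others -2.36 to -2.16).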

How the results depend on the processing

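Nuclear calls numbered 4806 to 5453 and cytoplasmic calls 4842 to 5607 when 1 library was left out, and at least 2-fold calls 1853 to 2210 and 153 to 232. With no replicate block, that is without batch as a term, they were 4694, 4621, 1910 and 164. The scale of values per length moved the most: limma on log2(TPM + 1) and log2(TPM + 0.1) gave 13696 and 13830 nuclear calls, 86 and 88 cytoplasmic calls, 3369 and 5123 at least 2-fold nuclear and 19 and 20 at least 2-fold cytoplasmic calls. With the mitochondrial genes removed from TPM, an alternative chosen after seeing the data, 3000 cytoplasmic calls and 23 of at least 2-fold were left. At least 2-fold cytoplasmic calls also moved to 76 with library totals, 274 with no filter and 259 in batches 3 and 4 alone. The nuclear weight of total RNA from cytoplasmic genes, 55.6% as the median of 4 batches, was 84.7% over the genes of at least 4-fold.

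Of the 145 named genes 17 changed sign, each only with TPM values. With pseudocounts of 1 and 0.1, in that order, the log2 ratios were 0.64 and 0.81 for IGF2BP3, 0.62 and 0.63 for IGF2BP1, 0.27 and 0.34 for IGF2BP2, 0.60 and 0.61 for MT-TF, 0.51 and 0.51 for MT-TV, 0.62 and 0.63 for ENO1, 0.54 and 0.54 for RPLP0, 0.43 and 0.43 for TUBA1B, 0.41 and 0.42 for LDHA, 0.28 and 0.28 for EEF1A1, 0.26 and 0.26 for ACTB, 0.16 and 0.16 for GAPDH, 0.0929 and 0.093 for RPS4X, 0.0241 and 0.0248 for CNOT7, 0.0181 and 0.0182 for HOXD13, and 0.0015 and 0.0038 for HNRNPA1L3. MIAT was 0.36 with 0.1 alone.

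Of 38 lists, 19 had the same sign of the median under all alternatives that gave a value. Genes near the count filter, such as the mitochondrial tRNAs, have few reads behind each ratio. Ratios of overlapping genes, duplicated copies and genes within introns depend on how reads were assigned, which was not varied here.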
